A study of Homo sapiens with 6 samples.

Results

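Chemokines are small secreted or membrane-tethered proteins that guide the migration of leukocytes and other cells through G protein-coupled receptors. The present account covers 10 chemokine genes found by symbol in the deposited table of 42656 genes: 7 of the CXC class (CXCL1, CXCL2, CXCL3, CXCL5, CXCL6, CXCL8 and CXCL16), 2 of the CC class (CCL2 and CCL20) and the CX3C chemokine CX3CL1. They were measured by RNA sequencing in TOV21G, an established cell line derived from an ovarian clear cell carcinoma and labelled as wild type. Cells received a lentivirus carrying either a scrambled short hairpin RNA (shCtrl) or 1 hairpin targeting MEX3A, which encodes an RNA-binding protein (shMEX3A), at a multiplicity of infection of 50, and RNA was taken on day 3. Each group has 3 libraries, and both groups share the parent line, the virus and the culture medium with 15% serum. As each group rests on a single hairpin in 1 line, an effect of MEX3A loss and an effect of that hairpin on other genes cannot be told apart. The labels do not state whether the 3 libraries of a group are separate cultures. The p-values reflect the spread among the libraries, which may be technical, with each gene's spread drawn towards that of other genes.

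CXCL1, CXCL2, CXCL3, CXCL5, CXCL6 and CXCL8 carry a Glu-Leu-Arg motif before their first cysteines, act on CXCR2 (CXCL6 and CXCL8 also on CXCR1) and are best known for drawing neutrophils. Their genes lie together on chromosome 4 and are classic targets of NF-kB, the transcription factor that is released when inflammatory signals lead to the degradation of its inhibitor. Their mRNAs are short-lived, and AU-rich elements in the 3' UTR are read by decay and stabilising proteins. CCL2 acts on CCR2 and attracts monocytes, and CCL20 acts on CCR6 on lymphocytes and dendritic cells. CXCL16 (receptor CXCR6) and CX3CL1 (receptor CX3CR1) are made as transmembrane proteins and are cut free by the sheddases ADAM10 and ADAM17.

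All 10 genes are annotated as protein coding in GENCODE 29 (GRCh38). The cluster genes lie at chr4:73740506-73743716 (CXCL8, plus strand), chr4:73836497-73849064 (CXCL6, plus), chr4:73869393-73871242 (CXCL1, plus), chr4:73995642-73998779 (CXCL5, minus), chr4:74036589-74038807 (CXCL3, minus) and chr4:74097035-74099293 (CXCL2, minus). CXCL16 lies at chr17:4733526-4739922 (minus), CCL2 at chr17:34255218-34257203 (plus), CCL20 at chr2:227805739-227817564 (plus) and CX3CL1 at chr16:57372458-57385048 (plus).

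All 6 genes of the chromosome 4 cluster held the letters GGAATTTCC, one form of the NF-kB binding site, upstream of their start in the RefSeq promoter table (GRCh38.p14). Their 30-base surroundings are shown because these genes share the element. Its part in the changes of these genes was not tested. Capitals mark the 9 letters.
CXCL1: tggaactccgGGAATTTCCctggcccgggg
CXCL2: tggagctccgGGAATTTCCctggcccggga
CXCL3: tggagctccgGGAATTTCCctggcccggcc
CXCL5: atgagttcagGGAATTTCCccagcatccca
CXCL6: ctgagttcagGGAATTTCCccagcatccca
CXCL8: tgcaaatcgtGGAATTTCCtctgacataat

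These windows lie at chr4:73869305-73869334 (CXCL1, plus strand), chr4:74099253-74099282 (CXCL2, minus), chr4:74038748-74038777 (CXCL3, minus), chr4:73998748-73998777 (CXCL5, minus), chr4:73836579-73836608 (CXCL6, plus) and chr4:73740468-73740497 (CXCL8, plus). The element began at base -78 from the RefSeq start in CXCL1 and CXCL3, at -77 in CXCL2, -90 in CXCL5, -89 in CXCL6 and -91 in CXCL8. GENCODE 29 places some starts further upstream: the windows of CXCL2, CXCL5 and CXCL6 lie within the first exon of the representative transcript, that of CXCL3 within an exon of another transcript, and those of CXCL1 and CXCL8 outside all exons of their gene. Searched on both strands of the 250 bases upstream, GGAATTTCC was present in 6 of the 7 members that the promoter table holds and in 145 of 34788 promoters (0.417%). The member without it was CCL20. CXCL16, CCL2 and CX3CL1 were not matched.

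The upstream sequences differ in how alike they are. Over the 250 upstream bases, CXCL1 and CXCL3 were identical at 81.4% of aligned positions, CXCL2 and CXCL3 at 73.4%, CXCL1 and CXCL2 at 70.1%, and CXCL5 and CXCL6 at 85.3%. Between CXCL1, CXCL2 or CXCL3 and CXCL5 or CXCL6 identity was lower, at 52.3% to 54.2%. CXCL8 was the least alike, with 43.9% to 47.9% identity to the other 5. It was also the only member of the 7 with TGANTCA, the AP-1 site, which reads the same on both strands and began at base -137; 6.59% of promoters hold it. TATAAA was found in CXCL8 at -31 and in CCL20 at -29, against 10.8% of promoters. The looser 10-base NF-kB consensus was present in 6 of the 7 (all but CXCL8), against 9.95% of promoters. In 5 of them it overlapped GGAATTTCC, and in CCL20, which lacks those letters, it began at -79 on the minus strand. These matches are descriptions of sequence; no binding was measured.

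The targeted gene was lower in every shMEX3A library. MEX3A stood at 68.7, 70.7 and 67.6 CPM (counts scaled to a common library total, here with TMM factors) in shCtrl and at 19.6, 20.9 and 22.2 CPM in shMEX3A (log2 change -1.72, SE 0.046, adjusted p = 1.52e-28 by the quasi-likelihood test of edgeR). Library totals ran from 34662635 to 48228216 counts, and 15679 genes passed the low-count filter, which asks for about 0.247 CPM (10 counts) in 3 libraries. The comparison changed much of the transcriptome: 69.7% of tested genes passed an adjusted p of 0.05, 34.0% higher and 35.6% lower, and for 72.3% the 2 groups did not overlap. The median log2 fold change of all tested genes was -0.008.

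Among the 10 chemokines, 6 rose (CXCL1, CXCL2, CXCL3, CXCL6, CCL2 and CX3CL1), CXCL5 fell, CXCL8 and CXCL16 did not pass the test, and CCL20 was too weak to test. The 7 calls among 9 tested members are 77.8%, near the 69.7% of all genes, so the number of calls says nothing particular about chemokines. The groups did not overlap for these 7, as for 72.3% of all tested genes. The median log2 fold change of the 9 tested was 0.45. Each of the 9 passed the filter in all 3 libraries of both groups, so none entered through 1 group alone.

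**Figure D1:**
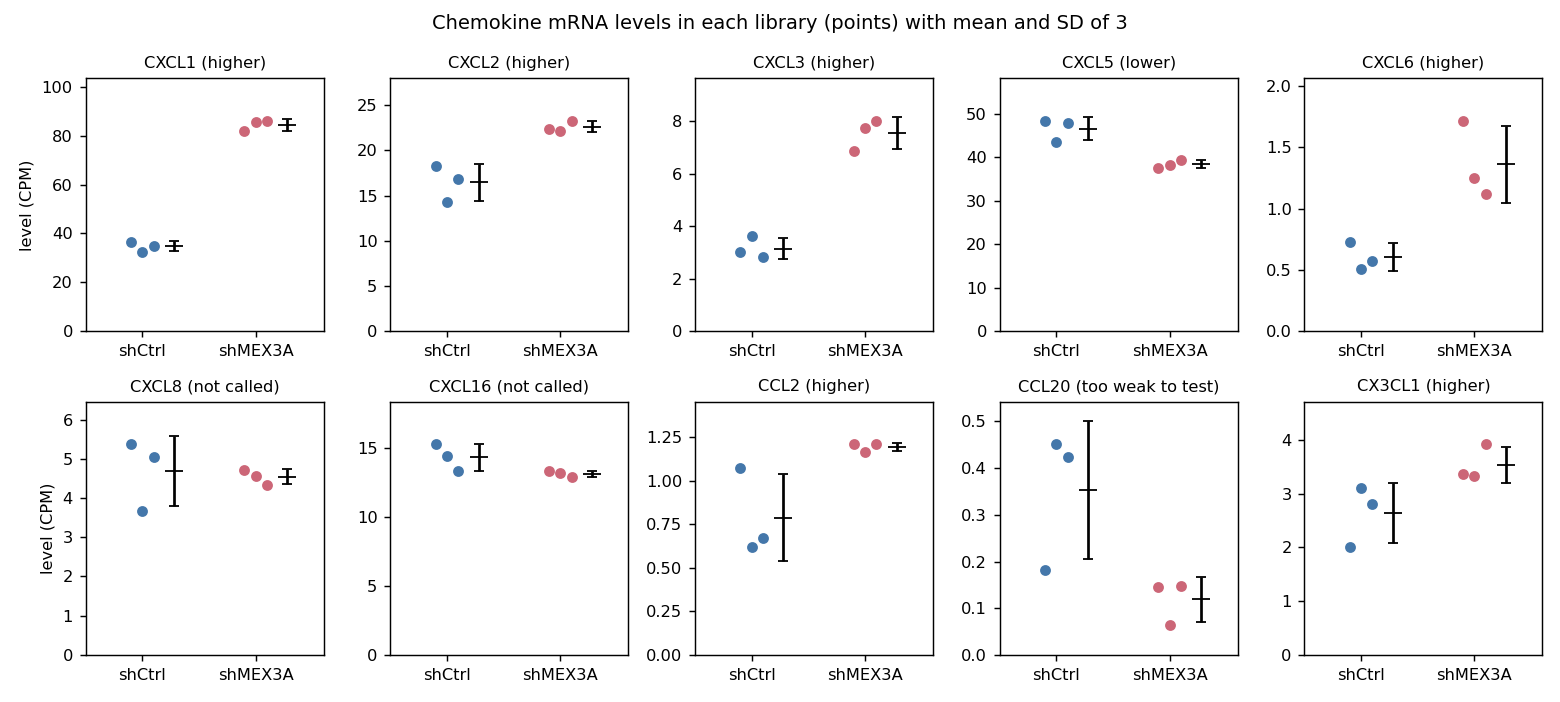
Level of each chemokine in CPM (linear axes from 0, 1 panel a gene) in the 3 shCtrl and 3 shMEX3A libraries, with the mean and SD beside the points. In CXCL1, CXCL3 and CXCL6 every shMEX3A library lies above every shCtrl library, and in CXCL8 and CXCL16 the groups overlap.

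CXCL1, a neutrophil attractant first described as a melanoma growth factor, rose in all 3 shMEX3A libraries. Its level was 36.6, 32.6 and 35.0 CPM in the shCtrl libraries and 81.7, 85.4 and 86.2 CPM in the shMEX3A libraries. The groups were far apart relative to the spread within each: the means were 34.7 ± 2.03 and 84.4 ± 2.37 CPM (SD, n = 3 each), a 2.43-fold rise (log2 fold change 1.28, SE 0.042, adjusted p = 9.93e-26). By size of rise CXCL1 ranked 630 of 15679 tested genes.

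CXCL3, its close paralog and also a CXCR2 ligand, was weaker and also rose. Its level was 3.02, 3.61 and 2.82 CPM in shCtrl and 6.85, 7.75 and 8.02 CPM in shMEX3A. The lowest shMEX3A library was above every shCtrl library, and the log2 fold change was 1.26 (SE 0.109, adjusted p = 5.29e-13), with a 95% interval of 1.04 to 1.49.

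CXCL2, the third of these paralogs, rose less. Its level was 18.3, 14.3 and 16.8 CPM in shCtrl and 22.3, 22.2 and 23.3 CPM in shMEX3A. The groups did not overlap, and the rise was 1.36-fold (log2 fold change 0.45, SE 0.067, 95% interval 0.31 to 0.59, adjusted p = 7.32e-07). Its interval lies below those of CXCL1 and CXCL3.

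The 3 paralogs share sequence, which limits how cleanly reads can be assigned. Of all 50-base windows, 5.73% of those in CXCL1, 9.24% in CXCL2 and 5.26% in CXCL3 also occur in another of the 3. No 100-base window does. Reads from shared stretches may have been left uncounted or split, by rules not given in the sources used here.

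CXCL6, a granulocyte attractant, was weak in both groups. Its level was 0.731, 0.507 and 0.573 CPM in shCtrl, from 32, 18 and 23 counts, and 1.72, 1.25 and 1.12 CPM in shMEX3A, from 71, 59 and 38 counts. Every shMEX3A library was above every shCtrl library. The log2 fold change was 1.16 (SE 0.255, adjusted p = 0.000116), and its 95% interval of 0.65 to 1.68 reflects the low counts. Of its exon bases, 4.31% lie under the pseudogene PPBPP1 on the same strand.

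CXCL5, another neutrophil attractant, whose upstream sequence was closest to that of CXCL6, was the only member that fell. Its level was 48.4, 43.4 and 47.8 CPM in shCtrl and 37.6, 38.3 and 39.4 CPM in shMEX3A. The groups did not overlap, and the log2 fold change was -0.28 (SE 0.045, 95% interval -0.37 to -0.19, adjusted p = 1.02e-06). The fall lost its call when offsets for GC content and transcript length were fitted (log2 fold change -0.061, adjusted p = 0.193).

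CXCL8, also known as interleukin-8, did not pass the test. Its level was 5.37, 3.67 and 5.04 CPM in shCtrl and 4.72, 4.56 and 4.33 CPM in shMEX3A. All 3 shMEX3A libraries lay within the shCtrl range. The log2 fold change was -0.055 (SE 0.119, adjusted p = 0.691), and its 95% interval runs from -0.30 to 0.19, a change of -18.6% to 13.8%. With the GC and length offsets the value was 0.22 and also missed the threshold (adjusted p = 0.0841).

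**Figure D2:**
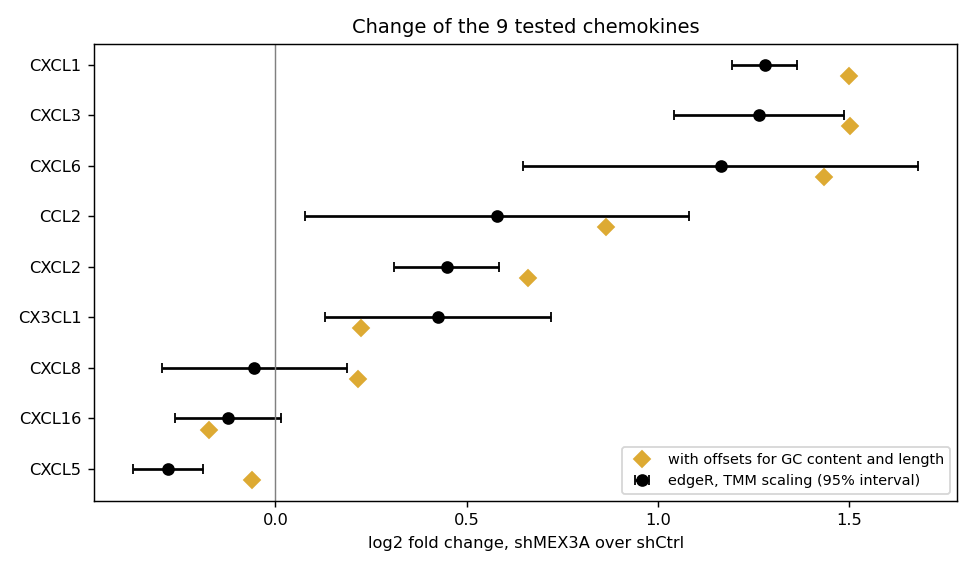
Log2 fold change of the 9 tested chemokines, shMEX3A over shCtrl, with 95% intervals (black), and the value with offsets for GC content and transcript length (yellow diamonds). CXCL1, CXCL3 and CXCL6 lie above 1 under both, and CXCL5 moves from -0.28 to -0.061.

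The cluster thus changed unevenly along the chromosome. In GENCODE 29 the order is CXCL8, CXCL6 (96 kb from the start of CXCL8), CXCL1 (129 kb), CXCL5 (255 kb), CXCL3 (296 kb) and CXCL2 (357 kb), with the platelet chemokine genes PF4V1, PF4 and PPBP between them. CXCL5 lies between CXCL1 and CXCL3, which both rose more than 2-fold. PF4V1, PF4 and PPBP were listed at 0 counts in all 6 libraries.

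**Figure D3:**
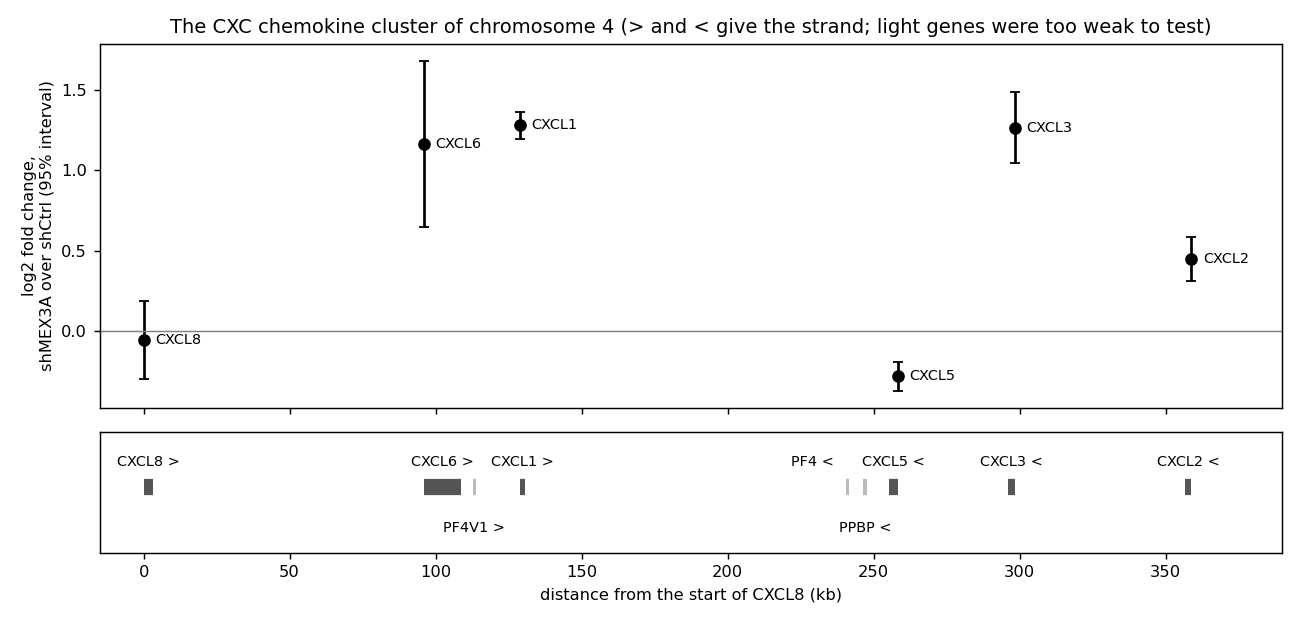
Log2 fold change with 95% interval of the 6 cluster members (upper panel) by distance in kb from the start of CXCL8, above a map of the protein-coding genes (lower panel). CXCL5, at about 255 kb, lies below 0 between CXCL1 and CXCL3.

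Ratios of counts within a library do not depend on how libraries are scaled, and 6 pairs were compared, chosen after their values were seen. The ratio of CXCL1 to CXCL5 was 0.756, 0.750 and 0.732 in shCtrl and 2.18, 2.23 and 2.19 in shMEX3A. The ratio, not corrected for transcript length, was below 1 in each shCtrl library and above 2 in each shMEX3A library. The ratio of CXCL6 to CXCL5 rose from 0.0129 ± 0.0019 to 0.0356 ± 0.00902, that of CXCL1 to CXCL2 from 2.12 ± 0.143 to 3.74 ± 0.103, that of CXCL3 to CXCL2 from 0.195 ± 0.0498 to 0.334 ± 0.0234 and that of CXCL1 to CXCL8 from 7.55 ± 1.16 to 18.6 ± 1.28 (SD, n = 3 each). In these 5 pairs the groups did not overlap. That gives a two-sided exact permutation p of 0.1, the smallest that 3 against 3 allows (adjusted over the 6 pairs, 0.12). Because the pairs were picked with their values known, these p-values are no support for a change. The adjustment covers only the 6 pairs picked. The ratio of CXCL1 to CXCL3 was 11.2 ± 1.88 and 11.2 ± 0.622, and the groups overlapped (exact permutation p = 1).

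Levels can be compared between genes only per transcript length, here as RPKM, the CPM divided by the transcript length in kilobases. In shCtrl the order was CXCL1 (31.6 RPKM), CXCL5 (18.3), CXCL2 (13.5), CXCL16 (6.44), CXCL3 (2.93), CXCL8 (2.75), CCL2 (1.07), CX3CL1 (0.796), CCL20 (0.441) and CXCL6 (0.352). The libraries of CXCL3 and CXCL8, of CCL2 and CX3CL1, and of CCL20 and CXCL6 overlapped, and the other neighbours did not. Such overlap reflects the spread among libraries only. It does not measure error between genes, such as that from using 1 transcript length per gene, so the order is a description. In shMEX3A the order was CXCL1 (77.0 RPKM), CXCL2 (18.6), CXCL5 (15.1), CXCL3 (7.01), CXCL16 (5.90), CXCL8 (2.66), CCL2 (1.61), CX3CL1 (1.07), CXCL6 (0.794) and CCL20 (0.148), with no overlap between neighbours. Summed over the 6 cluster genes, the level rose from 69.5 ± 4.81 to 121 ± 3.08 RPKM. CXCL1 made up 45.5% ± 0.523 of that sum in shCtrl and 63.5% ± 0.366 in shMEX3A, while CXCL5 went from 26.4% ± 0.491 to 12.5% ± 0.0976 (SD, n = 3 each).

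**Figure D4:**
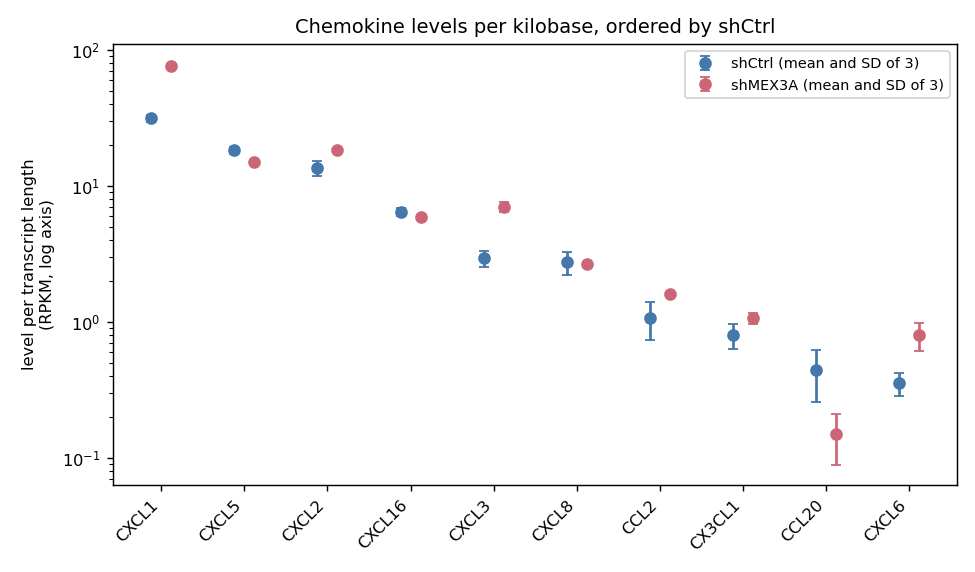
Level of each chemokine in RPKM (log axis; mean and SD of 3 libraries) in shCtrl (blue) and shMEX3A (red), ordered by shCtrl. CXCL1 is at the top in both groups, at 31.6 and 77.0 RPKM.

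CCL2, the monocyte attractant also called MCP-1, was near the lower end of what could be tested. Its level was 1.07, 0.620 and 0.673 CPM in shCtrl, from 47, 22 and 27 counts, and 1.21, 1.17 and 1.21 CPM in shMEX3A, from 50, 55 and 41 counts. The groups did not overlap, but shCtrl replicate 1 lay close to the shMEX3A libraries. The log2 fold change was 0.58 (SE 0.248, 95% interval 0.077 to 1.08, adjusted p = 0.0368). DESeq2 gave 0.59 and did not call it (adjusted p = 0.129). The call was also lost when any library but shCtrl replicate 1 was left out (adjusted p = 0.0666 to 0.144), and without that replicate the value was 0.88 (adjusted p = 0.00516).

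CCL20 was too weak to test. It had 8, 16 and 17 counts in shCtrl (0.183, 0.451 and 0.424 CPM) and 6, 3 and 5 counts in shMEX3A (0.145, 0.0637 and 0.147 CPM). The shCtrl counts were higher in each library, yet 2 shCtrl libraries and 0 shMEX3A libraries reached the filter's floor. Fitted without the filter, the log2 fold change was -1.58 (SE 0.564, adjusted p = 0.0135), and DESeq2 gave -1.58 with an adjusted p of 0.0526. As CCL20 reached the floor only in shCtrl, these values are no support for a fall.

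The transmembrane chemokines differed: CXCL16 did not pass the test, and CX3CL1 was called higher. CXCL16, also a scavenger receptor for oxidised lipoproteins, stood at 15.2, 14.4 and 13.3 CPM in shCtrl and 13.3, 13.2 and 12.9 CPM in shMEX3A. The 2 ranges met at 13.3 CPM. The log2 fold change was -0.13 (SE 0.068, 95% interval -0.26 to 0.013, adjusted p = 0.101), a change of -16.7% to 0.927%. It passed the test with the GC and length offsets (-0.17, adjusted p = 0.0199) and without shCtrl replicate 3 (-0.18, adjusted p = 0.0317). Of its exon bases 3.04% lie under MED11 on the other strand, and the strand setting of the counting is not given in the sources used here.

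CX3CL1, or fractalkine, rose by 1.34-fold. Its level was 2.01, 3.10 and 2.82 CPM in shCtrl and 3.36, 3.33 and 3.92 CPM in shMEX3A. The groups did not overlap, and shCtrl replicate 1 was the lowest library. The log2 fold change was 0.43 (SE 0.146, 95% interval 0.13 to 0.72, adjusted p = 0.00969). The call was lost with DESeq2 (adjusted p = 0.0594), with the GC and length offsets (0.22, adjusted p = 0.160), without shCtrl replicate 1 (0.25, adjusted p = 0.131) and without shMEX3A replicate 3 (adjusted p = 0.0653).

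The sheddases that release both proteins fell. ADAM10 went from 231 ± 5.00 to 136 ± 1.97 CPM (log2 change -0.76, SE 0.031, adjusted p = 1.36e-22) and ADAM17 from 73.9 ± 1.17 to 61.1 ± 1.20 CPM (-0.27, SE 0.037, adjusted p = 3e-08). Protein release was not measured.

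The members differ in GC content and transcript length. The offsets were fitted on both together in these same libraries, so the direction of each shift follows from the fit. The 7 tested members with a GC content of at most 46.0% in their representative transcript (CXCL8 the lowest, 33.4%) had a higher log2 fold change with the offsets, and CXCL16 (56.0%) and CX3CL1 (59.7%) a lower one. CXCL1 went from 1.28 to 1.50, CXCL3 from 1.26 to 1.50 and CXCL6 from 1.16 to 1.43. CCL2 went from 0.58 to 0.86. On the genes with a GC value but without offsets, CXCL1 was 1.30, CXCL3 1.28, CXCL6 1.18 and CCL2 0.60.

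The 3' UTRs of the cluster genes are rich in ATTTA, the core of AU-rich elements, counted in the GENCODE 29 representative transcripts. There were 11 copies in CXCL5, 10 in CXCL2, 9 in CXCL8, 7 in CXCL3, 6 in CXCL6 and 5 in CXCL1, against a median of 1 over 18690 protein-coding genes, of which 25.6% hold 5 or more. CCL20 had 3, CX3CL1 2, and CCL2 and CXCL16 1 each. The longer form TTATTTATT, which contains ATTTA, occurred 5 times in CXCL2, 3 times in CXCL1 and once each in CXCL3, CXCL8 and CX3CL1, against 7.66% of genes with any. Whether the number of copies is related to the changes was not tested. UTR length differs between the genes (2016 bases in CX3CL1, 1995 in CXCL5, 721 in CXCL2 and 706 in CXCL1), and the copies were not scaled to it.

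Of 34 other chemokine genes listed, 3 passed the filter and 2 of these fell (66.7% called, near the 69.7% of all tested genes). The other 31 were too weak, of which 21 had 0 counts in all libraries. CXCL12, the ligand of CXCR4 that retains stem cells and lymphocytes, fell from 4.82 ± 0.288 to 0.346 ± 0.0456 CPM (log2 change -3.80, SE 0.189, adjusted p = 4.65e-20), from 176 to 219 counts in shCtrl to 12 to 16 counts in shMEX3A. This was a larger change than that of any member. CCL28, a mucosal chemokine, fell from 24.7 ± 1.32 to 18.3 ± 1.07 CPM (-0.44, SE 0.059). CCL5 stood at 0.558 ± 0.0729 and 0.507 ± 0.0827 CPM and did not pass (adjusted p = 0.668).

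Of 18 chemokine receptors, 3 passed the filter, and CXCR4 is the one that was called and passed it in both groups. CXCR4 went from 88.4 ± 2.80 to 120 ± 4.83 CPM (log2 change 0.43, SE 0.036, adjusted p = 2.16e-13). CCR7, the lymph node homing receptor, passed the filter only through shMEX3A, with 3 to 7 counts in shCtrl and 11 to 23 in shMEX3A, so its call is no support for a rise. CCR10, a receptor of CCL28, stood at 10.4 ± 1.13 and 11.4 ± 0.914 CPM (adjusted p = 0.135). The receptors of the members were near or at 0: CXCR1, CCR2 and CXCR6 had 0 counts in every library, CXCR2 0 to 1, CX3CR1 1 to 4 and CCR6 0 to 8. Of 6 atypical receptors, which bind chemokines without the usual signalling, ACKR2 (adjusted p = 0.234) and PITPNM3 (adjusted p = 0.632) were tested and neither passed.

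Upstream genes were read from lists of cytokine signalling genes, transcription factors and RNA decay factors. Of 27 genes of cytokine and Toll-like receptor signalling (cytokines, receptors, the antagonist IL1RN, and adaptors and kinases such as MYD88 and IRAK1), 20 were tested, 12 rose and 5 fell. That is 85.0% called, against 69.7% of all tested genes (34.0% higher, 35.6% lower), with a median log2 fold change of 0.17. The largest calls were IL6, an inflammatory cytokine often induced together with CXCL8, from 25.5 ± 1.51 to 85.5 ± 0.806 CPM (log2 change 1.75), and LIF, a cytokine of that family, from 17.6 ± 1.08 to 55.3 ± 0.168 CPM (1.65). IL1RAP, the accessory chain of the interleukin-1 receptor, fell by 0.58 and IL18 by 0.44 on the log2 scale. TNF, named outside the rule, rose from 9.71 to 13.0 CPM, and the interleukin-1 genes IL1A and IL1B, at 0 to 22 counts, were too weak to test.

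All 20 genes of NF-kB factors and their regulators were tested, and 15 rose and 3 fell (90.0% called against 69.7% of all tested genes, of which 34.0% were higher and 35.6% lower; median 0.26). No test set this list against other genes. NFKB1, which encodes the p50 subunit, rose from 62.0 ± 2.16 to 102 ± 1.26 CPM (log2 change 0.72) and NFKB2 from 164 ± 3.68 to 227 ± 6.47 CPM (0.47). MAP3K7, the kinase TAK1, fell from 54.1 ± 1.20 to 40.1 ± 1.38 CPM (-0.43). TNFAIP3, the inhibitor A20, went from 66.1 ± 2.26 to 61.9 ± 0.503 CPM (-0.096, adjusted p = 0.0236), a call that DESeq2 did not give (adjusted p = 0.0832). mRNA levels do not show whether NF-kB was active.

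Of 16 transcription factors (AP-1, C/EBP and STAT factors plus EGR1 and SP1), 15 were tested, 8 rose and 5 fell. That is 86.7% called against 69.7% of all tested genes (34.0% higher and 35.6% lower), with a median of 0.44. EGR1 and SP1 are among the 5 that fell. FOSL1, an AP-1 subunit, rose from 29.9 ± 1.22 to 91.0 ± 2.31 CPM (log2 change 1.61), and JUN from 36.5 ± 0.526 to 69.4 ± 1.38 CPM (0.93). CEBPG fell by 0.48 and EGR1 by 0.39 on the log2 scale. Of 19 mRNA decay and stability factors, 18 were tested, 5 rose and 8 fell (72.2% called, near the 69.7% of all tested genes; median -0.062). ZC3H12A, the endonuclease Regnase-1, rose from 4.12 ± 0.233 to 11.1 ± 0.861 CPM (1.43), and ZFP36L1, which binds AU-rich elements, from 450 ± 25.4 to 693 ± 13.0 CPM (0.62). The deadenylase PARN fell by 0.43 and CNOT1, the scaffold of the CCR4-NOT deadenylase, by 0.26. ZFP36, a widely expressed gene whose product binds AU-rich elements, is listed at 0 in all 6 libraries, which does not show that it was not expressed.

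**Figure D5:**
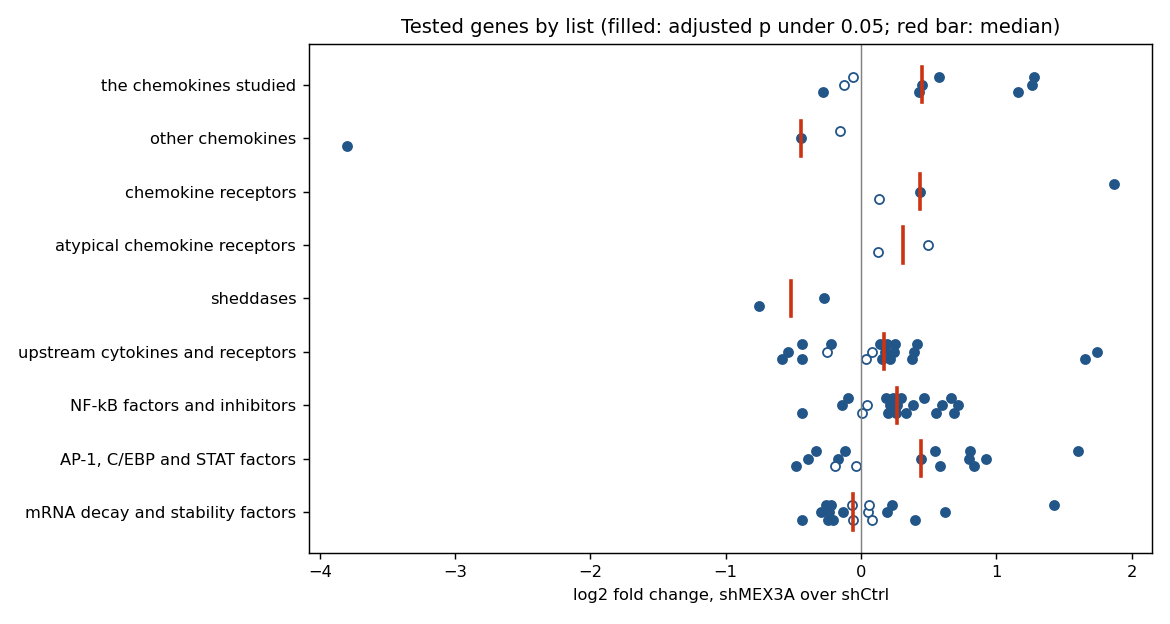
Log2 fold change of every tested gene in the chemokine, receptor, sheddase and upstream lists (points; filled where the adjusted p was under 0.05; red bar, the median of the list). CXCL12 lies farthest left, at -3.80, and the chemokines studied have a median of 0.45.

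By the distance between centred log2 CPM profiles over the 6 libraries, the tested genes most like CXCL1 were SAT1 (0.0924), ANPEP (0.0957) and ATP6V0C (0.0980). This is a weak distinction, because 246 genes had a log2 fold change within 0.1 of that of CXCL1.

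Marker genes were examined for other cells in the culture. For reference, 69.7% of all tested genes were called, 34.0% higher and 35.6% lower. In bulk RNA, fewer cells of a type and less RNA per cell cannot be told apart. Of the leukocyte markers PTPRC had 0 to 2 counts and CD3E 0 in every library, and CD14 had 3 to 14. Of the 8 in that list 2 were tested and both rose, CD68 (log2 fold change 0.27) and ITGAM (1.60), with the sum of the list at 7.66 to 8.85 CPM in shCtrl and 10.8 to 11.2 in shMEX3A. Of 6 fibroblast markers, 2 were tested and rose, COL1A1 (3.16) and DCN (0.90), and the summed level went from 17.6 to 18.9 CPM up to 122 to 132 CPM, while LUM, PDGFRB, PDGFRA and FAP had at most 8 counts. Of 6 endothelial markers 3 were tested: TIE1 rose (1.15), CDH5 (1 to 2 counts in shCtrl, 10 to 22 in shMEX3A) passed the filter only through shMEX3A, PECAM1 did not pass (adjusted p = 0.0666), the sum was 4.98 to 5.16 and 9.95 to 11.0 CPM, VWF had 1 to 9 counts, and KDR and EMCN had 0. Their part in the chemokine changes was not tested. Of 6 epithelial markers KRT8, KRT18 and KRT7 rose and CDH1 fell from 4.22 to 1.59 CPM, with EPCAM at 5.70 and 5.42 CPM. Among clear cell carcinoma markers, PAX8 stood at 192 and 294 CPM, while NAPSA was weak at 0.415 and 0.729 CPM. TFPI2 rose from 69.0 to 605 CPM and ANXA4 fell from 651 to 214 CPM.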

How the data were processed

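The authors deposited raw counts of reads per gene in a single table. The submitters' processing notes name GRCh38, HTSeq 2.0.4, STAR, edgeR 4.0.16 and fastp 0.20.0; the annotation release, the strand setting and STAR's version are not given there. Counts were tested here in R 4.3.3 with edgeR 4.0.16 (filterByExpr, TMM, robust quasi-likelihood fit, 4 residual degrees of freedom), with Benjamini-Hochberg adjustment over 15679 genes and a threshold of 0.05. The SE came from the F statistic. The intervals used the total degrees of freedom of the fit, which add information from other genes to the 4 residual ones. The common biological coefficient of variation was 3.41%. RPKM, GC content and 3' UTRs used 1 GENCODE 29 transcript per gene (best APPRIS rank, then protein coding, then longest).

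The members and lists were chosen with earlier results of these data known. Named outside the members are the other chemokines and receptors that passed the filter, ADAM10, ADAM17, the 2 called genes with the smallest p in each direction of each list, and the first 3 markers of each marker list; others were chosen after their values were seen, and a result under this rule is not reported here. Alternatives were upper-quartile factors, DESeq2 size factors, no filter, at least 1 CPM in 3 libraries, DESeq2 1.42.0, limma 3.58.1 voom, a replicate block, leaving out mitochondrially encoded genes, offsets for GC content and length (splines with 5 degrees of freedom on the 92.3% of tested genes with a value), and each library left out. A fit of those genes without offsets was added after seeing the data. Same-numbered libraries had correlations of -0.031, 0.077 and -0.077 in their deviations from the group means, and differently numbered ones -0.10 to 0.13. No pairing by number was visible, but this check cannot exclude a shared culture or batch.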

Additional observations from a re-analysis of the deposited data

How the results depend on the processing

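Over the 16 alternatives, CXCL1 (log2 fold change 1.24 to 1.50), CXCL3 (1.19 to 1.50), CXCL6 (0.97 to 1.43) and CXCL2 (0.36 to 0.66) stayed higher and called, and CXCL8 (-0.20 to 0.22) was called under none; CXCL5 kept its call in 15 of the 16. DESeq2 size factors and upper-quartile factors changed no member's direction or call. With the GC and length offsets CXCL5 was -0.061 (adjusted p = 0.193) and CX3CL1 0.22 (0.160), both no longer called, and CXCL16 was -0.17 (0.0199), newly called. CCL2 lost its call without the low-count filter (0.57, adjusted p = 0.0535) and with DESeq2 (0.59, 0.129), as did CX3CL1 with DESeq2 (0.43, 0.0594). With each library left out in turn, CCL2 ran from 0.44 to 0.88, CX3CL1 from 0.25 to 0.55 and CXCL16 from -0.18 to -0.075.

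Lower members numbered 2 without the filter and 1 to 2 with a library left out, where CCL20 was tested or CXCL16 called. With all libraries, CCL20 reached the filter's floor only in shCtrl, so its calls in these fits are no support for a fall. Among the lists, the higher receptors numbered 1 at the 1 CPM filter. Higher atypical receptors numbered 1 without the filter and 0 to 1 with a library left out. That gene was ACKR4, which failed the filter with all libraries (3 to 6 counts in shCtrl, 6 to 20 in shMEX3A). Its call is therefore no support for a rise. Lower NF-kB genes numbered 1 with DESeq2, 1 on the genes with a GC value and 1 to 2 with a library left out. Higher decay factors numbered 8 with the offsets, higher endothelial markers 1 at the 1 CPM filter, and lower endothelial markers 1 with the offsets and 0 to 1 with a library left out. With the replicate block, 6 members were higher and 1 lower, CXCL1 was 1.28 and no member's call changed. Among the other named genes, TNFAIP3 and NAPSA lost their calls with DESeq2 (adjusted p = 0.0832 and 0.112) and with 3 and 4 of the 6 libraries left out in turn, CCR10 gained one without shCtrl replicate 2 (0.0255), and PECAM1 gained one with the offsets (0.0439), without shCtrl replicate 1 (0.0209) and without shMEX3A replicate 1 (0.0436). The causes were not tested. Counts were low for CCL20, CXCL6 and CCL2, at 3 to 71 a library, and CXCL6 kept its call in all 16 alternatives.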
